A study of Arabidopsis thaliana with 12 samples.

Results

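The genes described here are the SPX, PHR1 and PHO2 phosphate signalling genes of *Arabidopsis thaliana*. They are 10 named loci, chosen by gene ID from their known place in the pathway, with no value in the rule, although earlier results of these data were known when the list was drawn up. The 4 SPX genes are *SPX1* (AT5G20150), *SPX2* (AT2G26660), *SPX3* (AT2G45130) and *SPX4* (AT5G15330), the transcription factors are *PHR1* (AT4G28610) and *PHL1* (AT5G29000), the ubiquitination genes are *PHO2* (AT2G33770) and *NLA* (AT1G02860), and the miR399 mimics are *IPS1* (AT3G09922) and *AT4* (AT5G03545). All 10 were found among the 19802 genes of the expression table. Roots of the wild type, Col-0, and of CRR OE, a line of the Col-0 ecotype that overexpresses *CRR*, were sequenced after 7 days on control medium with 1 mM phosphate (+Pi) or on medium to which no phosphate was added (–Pi). *CRR* encodes a membrane protein with cytochrome b561 and DOMON domains, and the transgene is a fusion of CRR to GFP under the CaMV *35S* promoter, which drives expression in most cells and not only where *CRR* is normally active. This gives 4 groups of 3 libraries, 12 in all, each a biological replicate made from the pooled roots of many seedlings, and the study asked how *CRR* overexpression bears on the root response to phosphate deficiency. The expression table holds 1 value per gene and group, the authors' mean log2 CPM (CPM being the count scaled to a library size adjusted by the TMM method, on a log2 scale). Values per library were not used here, so no spread between replicates, standard error or test stands beside any value, and all comparisons below are descriptions of differences between group means. The table also carries no count or depth, so no counting interval is given.

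PHR1 and its relative PHL1 are MYB-type transcription factors that bind a promoter element called P1BS and activate the genes of the phosphate starvation response. SPX proteins bind inositol pyrophosphates, which are plentiful in cells with enough phosphate, and in that state hold PHR1 away from DNA. A further arm of the pathway runs through microRNAs: miR399 targets the mRNA of *PHO2*, a ubiquitin-conjugating enzyme that marks phosphate transporters and the exporter PHO1 for degradation, miR827 targets the mRNA of *NLA*, a RING-type ubiquitin ligase with an SPX domain that acts on phosphate transporters, and *IPS1* and *AT4* are RNAs that sequester miR399 by imitating its target site with a central bulge.

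The sequences through which the miRNAs, *PHO2*, *NLA*, *IPS1* and *AT4* are tied together are shown first, since the pairing between them defines this arm of the pathway. All sequences were read from the RefSeq assembly TAIR10.1 by its annotated coordinates, which were identical to those of the expression table for 19781 of its genes. The mature miRNAs are given 5′ to 3′ with the seed, bases 2 to 8, in capitals. miR399a lies at chr1:10227165-10227185 on the plus strand, miR399f at chr2:14445084-14445104 on the plus strand and miR827 at chr3:22122811-22122831 on the minus strand. The seed GCCAAAG was shared by miR399a, miR399b, miR399c-3p, miR399d, miR399e and miR399f, while miR827 has the seed UAGAUGA.
miR399a: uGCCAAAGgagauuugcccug
miR399b and miR399c-3p: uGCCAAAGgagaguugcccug
miR399f: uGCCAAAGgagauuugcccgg
miR827: uUAGAUGAccaucaacaaacu

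A search of the *PHO2* transcript for sites with at most 4 mismatches and G:U pairs together found 5 sites for miR399, all in the 5′ UTR. They are printed 5′ to 3′ on the minus strand of chromosome 2, with the bases opposite the seed in capitals, in the order in which they lie along the mRNA: chr2:14282106-14282126, chr2:14281973-14281993, chr2:14281884-14281904, chr2:14281827-14281847 and chr2:14281770-14281790. The 7 bases opposite the seed are the same in all of them. The site at chr2:14281884-14281904 had 0 mismatches and 2 G:U pairs with miR399f. *NLA* held 1 site for miR827, at chr1:635401-635421 on the plus strand in the 5′ UTR, with 1 mismatch and 0 G:U pairs.
PHO2 site 1: uagggcaaaucuuCUUUGGCa
PHO2 site 2: uagggcauaucucCUUUGGCa
PHO2 site 3: uugggcaaaucucCUUUGGCa
PHO2 site 4: ucgagcaaaucucCUUUGGCa
PHO2 site 5: uagagcaaaucucCUUUGGCa
NLA site: uguuuguugauggUCAUCUAa

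*IPS1* and *AT4* each held 1 stretch that pairs with miR399 only when 3 inserted bases are allowed between the bases opposite positions 10 and 11 of the miRNA. The stretches are 24 bases long and lie at chr3:3051224-3051247 and chr5:895149-895172, both on the plus strand. With the insert set aside, each had 1 mismatch and 2 G:U pairs with miR399b. The inserted bases are in capitals, and the sequences of the 2 mimics differ there alone. The annotation lists both genes as protein-coding and the stretches as coding sequence, although the genes are known for their RNA. Levels of the 7 miRNA precursors were not analysed here.
IPS1 mimic: uugggcaacuuCUAuccuuuggca
AT4 mimic: uugggcaacuuCGAuccuuuggca

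Before the members are described, the groups were checked against their labels. *CRR*, the overexpressed gene, was at 5.96 log2 CPM in Col-0 +Pi, 5.95 in Col-0 –Pi, 12.70 in CRR OE +Pi and 12.72 in CRR OE –Pi, so it was 6.75 (+Pi) and 6.77 (–Pi) log2 units higher in CRR OE. All 5 markers of root tissue (*SCR*, *SHR*, *WER*, *CASP1*, *PYK10*) were measured, with summed levels of 9148 to 13693 CPM over the groups. Most of this is *PYK10*, a beta-glucosidase of root endoplasmic reticulum bodies, and the other 4 summed to 163.2 to 166.8 CPM. The 4 measured of 5 markers of green shoot tissue summed to 21.4 to 30.0 CPM. The 5 reference genes (*ACT2*, *UBQ10*, *PP2AA3*, *UBC21*, *TIP41L*) differed by at most 0.17 log2 units in any of the 4 comparisons between groups. The 5 markers of root hairs (*COBL9*, *EXPA7*, *EXPA18*, *LRX1*, *RSL4*), which are known to become denser and longer on low phosphate, differed with the medium: their summed level was 123.5 CPM in Col-0 +Pi, 343.0 in Col-0 –Pi, 142.7 in CRR OE +Pi and 384.1 in CRR OE –Pi. Of these 5, 3 were at least 1 log2 unit higher on –Pi in each line (*EXPA7*, *EXPA18*, *LRX1*), and *COBL9* was 0.90 higher in Col-0 and 0.92 in CRR OE. *RSL4*, a transcription factor of hair growth, had differences of 0.53 and 0.00, so the sum does not describe it. All 5 were expressed in every group, *RSL4* at 8.32 to 13.3 CPM, and their part in the results below was not tested. In whole roots, fewer cells of a type and less RNA per cell cannot be told apart.

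The first question was which of the 10 genes differed between –Pi and +Pi. In both lines *SPX1*, *SPX2*, *SPX3*, *IPS1* and *AT4* were at least 1 log2 unit higher on –Pi, and 0 were lower by that much. *SPX4*, *PHR1*, *PHL1*, *PHO2* and *NLA* lay in between, all of them with lower means on –Pi. A lower mean on –Pi, of any size, was found in 10681 of all 19802 genes in Col-0 and in 10667 in CRR OE. Among all 19802 genes, 3.96% were at least 1 log2 unit higher on –Pi in Col-0 and 2% lower (5.97% in either direction), and 3.18% were higher and 0.853% lower in CRR OE (4.03% in either direction). The median difference of the 10 genes was 1.05 (Col-0) and 1.00 (CRR OE), where all genes together had medians of -0.02 and -0.01. The median falls between a group of 5 with large differences and a group of 5 with small ones, and describes no single gene.

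**Figure D1:**
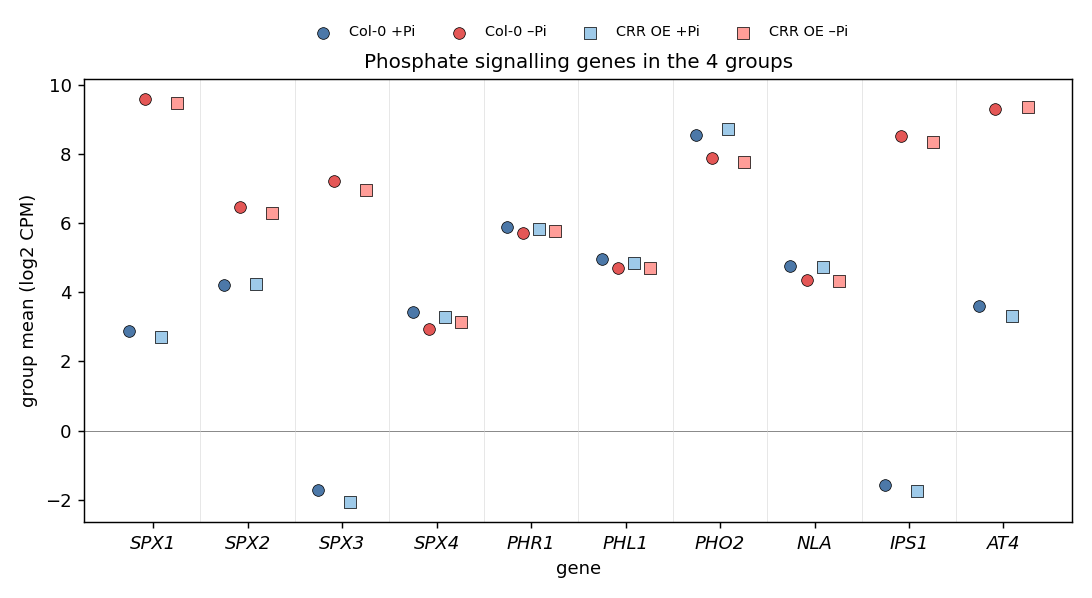
Group means of the 10 phosphate signalling genes (y axis, log2 CPM, 1 authors' mean per group and no error bars because the table holds no values per library). Circles are Col-0 and squares CRR OE, blue +Pi and red –Pi. *SPX1*, *SPX2*, *SPX3*, *IPS1* and *AT4* stand higher on –Pi in both lines, with *IPS1* going from -1.57 to 8.53 in Col-0, while the other 5 genes keep within 1 log2 unit.

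Among the SPX genes, which encode the phosphate-dependent inhibitors of PHR1, 3 of 4 stood far higher on –Pi. *SPX1* (chr5:6802282-6803655, plus strand, 3 exons) encodes a nuclear inhibitor of PHR1. It was at 2.89 log2 CPM (7.40 CPM) in Col-0 +Pi, 9.59 (768.5 CPM) in Col-0 –Pi, 2.70 (6.51 CPM) in CRR OE +Pi and 9.46 (703.6 CPM) in CRR OE –Pi. Both –Pi means thus lay far above both +Pi means, by 6.70 log2 units or 104-fold in Col-0 against 6.76 or 108-fold in CRR OE, the 14th largest higher difference of the table in each line. With 5 CPM added to each mean the differences were 5.96 and 5.94. Of the 2586 other genes of like level in Col-0, meaning that their mean over the compared groups was within 0.5 log2 CPM, 0 differed by as much. For a gene whose groups lie far apart, such as *SPX1*, that mean is the level of neither group. This comparison with genes of like level is used throughout as a yardstick for the size of a difference and is neither an error nor a test.

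*SPX3* (chr2:18606410-18607853, plus strand, 3 exons), whose protein is also placed in the nucleus, had the lowest level per length of the 10 on +Pi in either line. It was at -1.72 log2 CPM (0.304 CPM) in Col-0 +Pi, 7.22 (148.7 CPM) in Col-0 –Pi, -2.07 (0.238 CPM) in CRR OE +Pi and 6.95 (123.7 CPM) in CRR OE –Pi. The difference was 8.93 log2 units in Col-0 against 9.02 in CRR OE, which corresponds to 489-fold and 519-fold. The +Pi level of *SPX3* is under 1 CPM, and the size of its fold rests on that low value: with 1 CPM added to each mean the differences were 6.84 and 6.65, and with 5 CPM added 4.86 and 4.62.

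*SPX2* (chr2:11338752-11340950, plus strand, 3 exons), which acts redundantly with *SPX1*, differed less. Its level was 4.20 log2 CPM (18.4 CPM) in Col-0 +Pi, 6.46 (87.8 CPM) in Col-0 –Pi, 4.23 (18.8 CPM) in CRR OE +Pi and 6.29 (78.2 CPM) in CRR OE –Pi. The difference was 2.25 log2 units (4.77-fold) in Col-0 against 2.06 (4.16-fold) in CRR OE. Of 3693 genes of like level, 8 differed by as much in Col-0, and 12 of 3700 did in CRR OE.

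*SPX4* (chr5:4980374-4982231, plus strand, 3 exons) encodes a further protein of the SPX family, and it was the SPX gene with no higher mean on –Pi. It was at 3.44 log2 CPM (10.8 CPM) in Col-0 +Pi, 2.94 (7.70 CPM) in Col-0 –Pi, 3.28 (9.72 CPM) in CRR OE +Pi and 3.15 (8.86 CPM) in CRR OE –Pi. The differences of -0.49 in Col-0 against -0.13 in CRR OE were small beside those of its relatives. Among genes of like level, 16.9% differed by at least as much in Col-0 against 51.3% in CRR OE.

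The transcription factors above the SPX genes had nearly level means. *PHR1* (chr4:14132811-14135292, minus strand, 8 exon blocks) was at 5.88 log2 CPM (58.7 CPM) in Col-0 +Pi, 5.72 (52.7 CPM) in Col-0 –Pi, 5.82 (56.4 CPM) in CRR OE +Pi and 5.76 (54.1 CPM) in CRR OE –Pi. *PHL1* (chr5:11021980-11024978, minus strand, 6 exon blocks), which acts redundantly with *PHR1*, was at 4.95 (30.8 CPM), 4.70 (26.0 CPM), 4.86 (29.0 CPM) and 4.71 (26.1 CPM) in the same order of groups. The –Pi mean was lower than the +Pi mean for each gene in each line, by -0.16 (Col-0) and -0.06 (CRR OE) for *PHR1* and by -0.25 and -0.15 for *PHL1*. Differences of at least these sizes were found in 32.6% and 61.5% of genes of like level for *PHR1*, and in 22.8% and 32.8% for *PHL1*. Reads were counted per gene, and whether the counting used strand is not given in the sources used here. *PHR1* overlaps *NPGR2* on the opposite strand over 59 bases, and *NPGR2* was at 5.43 to 5.51 log2 CPM in the 4 groups.

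*PHO2* (listed as *UBC24*, chr2:14277558-14283113, minus strand, 9 exons), the target of miR399 whose sites are printed above, had the largest lower difference among the 10 genes in each line. It was at 8.53 log2 CPM (370.4 CPM) in Col-0 +Pi, 7.87 (234.1 CPM) in Col-0 –Pi, 8.72 (422.0 CPM) in CRR OE +Pi and 7.77 (218.8 CPM) in CRR OE –Pi. Both –Pi means lay below both +Pi means, by -0.66 log2 units in Col-0 against -0.95 in CRR OE, which leaves 0.632 and 0.518 of the +Pi level. Of 510 genes of like level, 16 (3.14%) differed by at least as much in Col-0, and 5 of 489 (1.02%) did in CRR OE. Neither difference reached 1 log2 unit.

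*NLA* (listed as *BAH1*, chr1:635144-637262, plus strand, 6 exon blocks), the target of miR827, had a smaller difference in the same direction. Its means were 4.75 log2 CPM (26.9 CPM) in Col-0 +Pi, 4.36 (20.6 CPM) in Col-0 –Pi, 4.73 (26.5 CPM) in CRR OE +Pi and 4.32 (20.02 CPM) in CRR OE –Pi. The difference was -0.39 in Col-0 against -0.40 in CRR OE, a size reached by 14.0% and 8.24% of genes of like level. *NLA* overlaps 2 genes on the opposite strand, AT1G02870 over 49 bases, which was at 5.11 to 5.27 log2 CPM in the 4 groups, and the long non-coding RNA AT1G04147 over 278 bases, which was not analysed here.

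The miR399 mimics lie at the other end of the range. *IPS1* (chr3:3050989-3051530, plus strand, 1 exon) was at -1.57 log2 CPM (0.336 CPM) in Col-0 +Pi, 8.53 (368.9 CPM) in Col-0 –Pi, -1.74 (0.299 CPM) in CRR OE +Pi and 8.35 (326.2 CPM) in CRR OE –Pi. The difference was 10.10 log2 units (1097-fold) in Col-0 against 10.09 (1093-fold) in CRR OE, the 4th and 3rd largest of the table. As for *SPX3*, the +Pi level is under 1 CPM, and with 1 CPM added the differences were 8.11 and 7.98, with 5 CPM added 6.13 and 5.97.

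*AT4* (chr5:894582-895517, plus strand, 1 exon) had a higher +Pi level than *IPS1* and so a smaller fold. It was at 3.61 log2 CPM (12.2 CPM) in Col-0 +Pi, 9.30 (632.2 CPM) in Col-0 –Pi, 3.33 (10.04 CPM) in CRR OE +Pi and 9.37 (660.1 CPM) in CRR OE –Pi. The –Pi means were 5.70 log2 units (51.9-fold) higher in Col-0 against 6.04 (65.8-fold) in CRR OE. These differences were the 28th and the 19th largest of the table.

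Levels of different genes can be compared once divided by exon length, which ran from 542 bases for *IPS1* to 4176 for *PHO2*. In Col-0 +Pi the order by CPM per kilobase was *PHO2* (88.7), *PHR1* (33.1), *NLA* (17.4), *SPX2* (14.3), *AT4* (13.0), *PHL1* (12.1), *SPX4* (7.93), *SPX1* (6.13), *IPS1* (0.620) and *SPX3* (0.332). On –Pi the mimics and *SPX1* led: in Col-0 –Pi the order was *IPS1* (680.5), *AT4* (675.5), *SPX1* (637.2), *SPX3* (162.4), *SPX2* (68.0), *PHO2* (56.1), *PHR1* (29.7), *NLA* (13.3), *PHL1* (10.2) and *SPX4* (5.64). In CRR OE the orders were the same except for 1 exchange of neighbours on each medium, *PHL1* (11.3) before *AT4* (10.7) on +Pi and *AT4* (705.2) before *IPS1* (601.8) on –Pi. With no spread between libraries, close neighbours such as *SPX2* and *AT4* on +Pi or *IPS1* and *AT4* on –Pi cannot be ranked. *PHR1* went from 33.1 to 29.7 CPM per kilobase while the mimics, *SPX1*, *SPX3* and *SPX2* went from below it to above it.

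**Figure D2:**
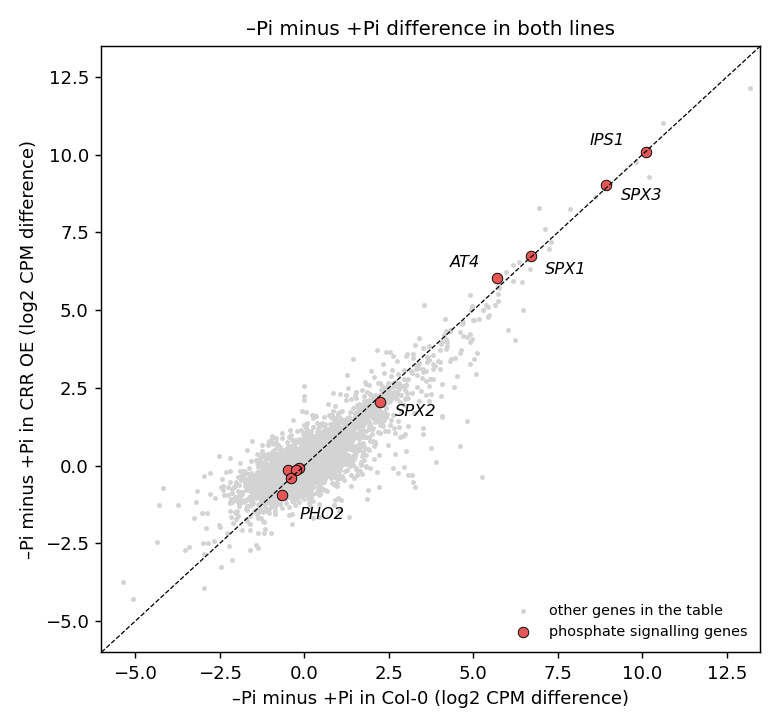
Difference –Pi minus +Pi (log2 CPM) in Col-0 (x axis) and in CRR OE (y axis) for every gene of the table, grey, and the 10 phosphate signalling genes, red, with the line of equal differences dashed. Each difference uses its own +Pi group. *IPS1* (10.10 and 10.09), *SPX3* (8.93 and 9.02), *SPX1* (6.70 and 6.76), *AT4* (5.70 and 6.04) and *SPX2* (2.25 and 2.06) lie near that line, and *PHO2* (-0.66 and -0.95) lies below it.

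The second question was whether *CRR* overexpression went with another level of these genes. On +Pi, 0 of the 10 genes differed by 1 log2 unit between CRR OE and Col-0, against 0.288% of all genes, and on –Pi 0 of 10 did, against 1.45% of all genes. The differences on +Pi were -0.18 for *SPX1*, 0.03 for *SPX2*, -0.35 for *SPX3*, -0.16 for *SPX4*, -0.06 for *PHR1*, -0.09 for *PHL1*, 0.19 for *PHO2*, -0.02 for *NLA*, -0.17 for *IPS1* and -0.28 for *AT4*. The CRR OE mean was thus the lower for 8 of 10 genes, where it was the lower for 9913 of all 19802 genes. The median was -0.12 against -0.00 over all genes. At the levels of *SPX3* and *IPS1* on +Pi, both under 1 CPM, larger differences were common, since 52.9% and 77.1% of genes of like level differed by at least as much. *AT4* was the one gene whose difference passed the 95th percentile of the absolute difference of genes of like level, at 0.28 against 0.26, and 4.06% of those genes differed by at least as much. For *PHO2* the share was 7.00%.

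On –Pi the differences between CRR OE and Col-0 were -0.13 for *SPX1*, -0.17 for *SPX2*, -0.27 for *SPX3*, 0.20 for *SPX4*, 0.04 for *PHR1*, 0.01 for *PHL1*, -0.10 for *PHO2*, -0.04 for *NLA*, -0.18 for *IPS1* and 0.06 for *AT4*. Of the 5 genes that are high on –Pi, 4 had the lower mean in CRR OE and *AT4* the higher. Over all 19802 genes, 9873 had the lower mean in CRR OE. All 10 lay within the 95th percentile of genes of like level, which ran from 0.33 to 0.53. The share of genes of like level with at least as large a difference was 10.1% for *SPX3*, the smallest of the 10, and 95.8% for *PHL1*.

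**Figure D3:**
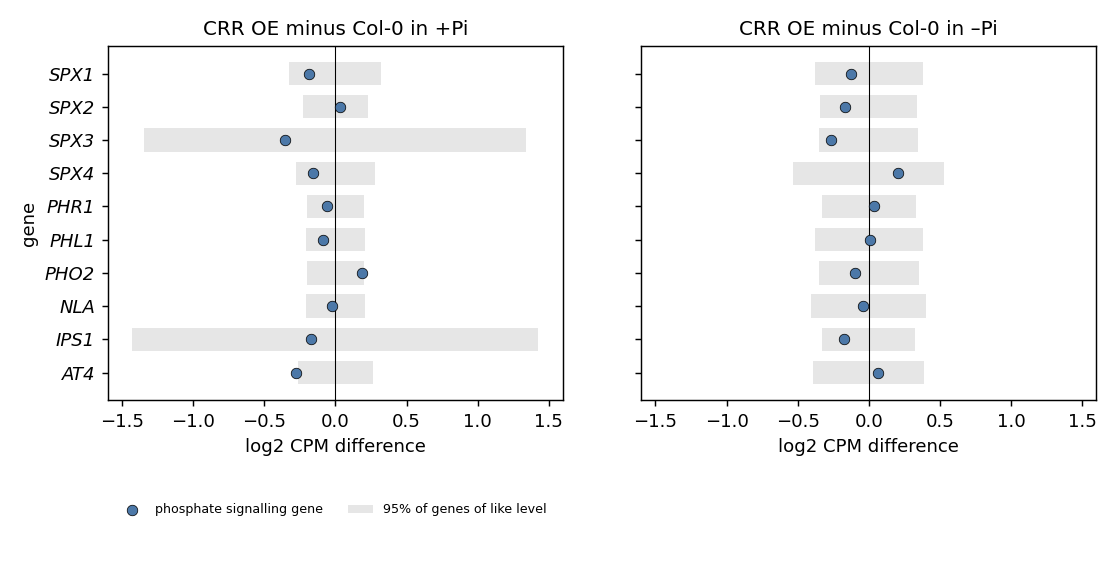
Difference CRR OE minus Col-0 (x axis, log2 CPM) on +Pi (left) and –Pi (right) for the 10 genes (y axis). Points are differences of 2 group means, and grey bars span plus and minus the 95th percentile of the absolute difference of genes of like level, which is a yardstick and not an error bar. On +Pi the point of *AT4* (-0.28) lies just outside its bar, and on –Pi every point lies inside.

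The difference between the –Pi responses of the lines was taken as the –Pi minus +Pi difference in CRR OE less that in Col-0. It was under 1 in size for all 10 genes, against 2.15% of all genes at 1 or more. It was 0.36 for *SPX4* and 0.34 for *AT4*, -0.29 for *PHO2* and -0.20 for *SPX2*, and between -0.02 and 0.10 for the other 6. *SPX4* had a smaller lower difference in CRR OE, *AT4* a larger higher one and *PHO2* a larger lower one. The shares of genes of like level with at least as large a value were 13.9% for *SPX4*, 5.24% for *AT4* and 9.02% for *PHO2*. Level here is the mean over the 4 groups, which for *AT4* is 6.40 log2 CPM, far from each of its 4 means. The 95th percentile was 0.35 at that level against 0.56 at the lower level of *SPX4*, so the share for *AT4* depends on the level chosen. No member passed the 95th percentile of genes of like level, and the sign of this value for *SPX1*, *SPX3*, *NLA* and *IPS1* changed under at least 1 other setting of pseudocount or centring. The 2 –Pi comparisons, the comparisons between lines and this value all come from the same 4 means and are not independent of each other.

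Further genes of the pathway were taken from lists by role. The inositol pyrophosphates that SPX proteins bind are made by a chain of inositol phosphate kinases, here *IPK1*, *ITPK1*, *ITPK3*, *ITPK4*, AT3G01310 (AtVIP1 in the reference annotation) and its relative AT5G15070. Of these 6 genes, 0 differed by 1 log2 unit between –Pi and +Pi in either line, against 5.97% of all genes in Col-0 and 4.03% in CRR OE. For 6 genes a count of 0 is near those shares. Their medians were -0.01 in Col-0 against -0.09 in CRR OE, with values from -0.19 (AT3G01310, Col-0) to 0.19 (AT5G15070, CRR OE). Of the 8 other regulators, 3 were at least 1 log2 unit higher on –Pi in Col-0 (3.96% of all genes) against 2 in CRR OE (3.18% of all genes). They belong to the HRS1 and HHO family of GARP-type repressors: *HHO2* was 1.36 higher in Col-0 against 1.17 in CRR OE, *HHO3* 1.22 and 1.04, and *HHO1* 1.19 and 0.79. Their relative *HRS1* had differences of -0.43 and -0.24. The PHR1 relatives AT3G24120 (0.07 and -0.07), *UNE16* (AT4G13640, 0.02 and 0.02) and AT2G20400 (-0.22 and -0.20), and *SIZ1* (-0.08 and -0.03), the SUMO ligase that acts on PHR1, were near 0.

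The proteins that PHO2 and NLA control, with those that bring them to and from the plasma membrane, formed the last list, and 5 of its 7 genes were at least 1 log2 unit higher on –Pi in both lines, with medians of 2.03 and 1.87. The phosphate importer *PHT1;2* was at 1.08 log2 CPM in Col-0 +Pi, 8.32 in Col-0 –Pi, 1.17 in CRR OE +Pi and 8.15 in CRR OE –Pi, a difference of 7.23 and 6.98. *PHT1;1* was 1.47 and 1.43 higher, *PHT1;4* 3.48 and 2.83, and *PHF1*, which lets the importers leave the endoplasmic reticulum, 2.03 and 1.87. *PHT1;3* stood at the table's minimum, -4.71 log2 CPM, in both +Pi groups and at 0.20 in Col-0 –Pi and -0.47 in CRR OE –Pi, so no fold is given and it is counted among the 5 by its distance from that minimum. *PHT1;1*, *PHT1;2* and *PHT1;3* are close copies of each other, and how reads that fit several genes were counted is not given in the sources used here, so the split between them is uncertain. *PHO1*, the exporter that loads phosphate into the xylem and is itself a target of PHO2, had differences of -0.05 and -0.02, and *ALIX*, needed for the trafficking of importers, 0.01 and 0.02. The mRNA means of *PHO1* were thus nearly level, and those of the importers were higher on –Pi. Between the lines, 0 of the 21 genes of these 3 lists differed by 1 log2 unit on either medium, against 0.288% of all genes on +Pi and 1.45% on –Pi. With shares this low, the count does not set these genes apart from others. By the yardstick of genes of like level, *PHT1;4* stood apart from the other 20, and it is picked out here as the most extreme of the 21. It was at 5.67 log2 CPM in Col-0 +Pi, 9.15 in Col-0 –Pi, 6.08 in CRR OE +Pi and 8.90 in CRR OE –Pi. On +Pi it was 0.40 higher in CRR OE, a size reached by 8 of 3105 genes of like level (0.258%, with a 95th percentile of 0.20). Its –Pi minus +Pi difference was lower in CRR OE by -0.65, a size reached by 6 of 1006 (0.596%, with a 95th percentile of 0.34). Most of this value is the +Pi difference of 0.40 again, so the 2 shares are not independent. On –Pi the difference of *PHT1;4* between the lines, -0.24, lay within the 95th percentile of 0.39. Of the other 20, *HHO1* came closest to its 95th percentile, with a difference between the responses of -0.401 against 0.403 (5.03%).

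**Figure D4:**
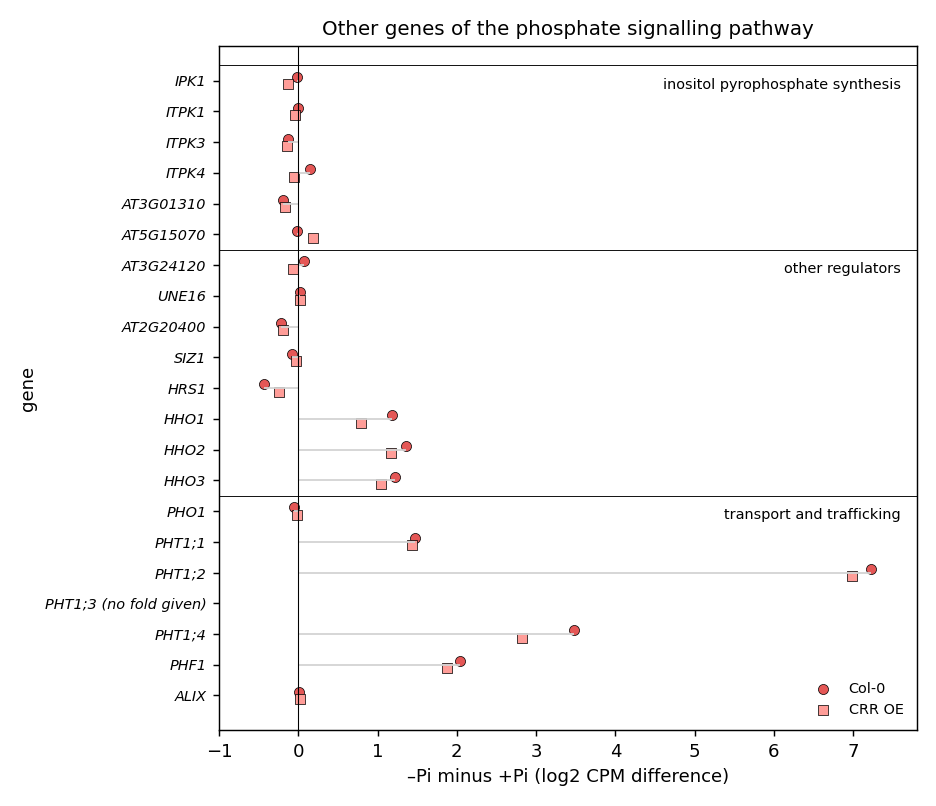
Difference –Pi minus +Pi (x axis, log2 CPM) for the 21 further pathway genes (y axis), in Col-0 (circles) and CRR OE (squares), by list. Kinases of inositol pyrophosphate synthesis lie near 0, *HHO1* to *HHO3* near 1 and *PHT1;2* at 7.23 and 6.98. *PHT1;3* has no point because its +Pi groups stand at the table's minimum.

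The P1BS element bound by PHR1 was searched as GNATATNC, a sequence that reads the same on both strands, in the bases before each annotated gene start. Within 300 bases it was found before *SPX3*, *NLA* and *AT4*, 3 of the 10 genes, against 6.46% of all 33054 annotated nuclear genes and 6.60% of the genes in the table. Within 1000 bases it was found before 8 of 10, against 20.1% and 20.5%, and it was not found before *SPX2* and *PHR1*. Of the 530 genes that were at least 1 log2 unit higher on –Pi in both lines, 17.2% held it within 300 bases and 34.5% within 1000, and 17.0% and 34.1% of the 525 of them that are not among the 10. Of the 107 genes at least 1 lower in both lines, 7.48% and 18.7% held it, and of the genes under 1 in both, 6.24% and 20.1%. A match is a description of the letters and not a shown binding site.

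The matches before 4 of the 5 genes that stood higher on –Pi are printed below with the bases around them, since these genes differed most and *SPX2* had none. Each stretch is on the plus strand, which is also the strand of the gene, with the motif in capitals. The first base of the motif lies 735 bases before the start of *SPX1* (chr5:6801527-6801574), 213 and 90 before *SPX3* (chr2:18606177-18606224 and chr2:18606300-18606347), 582 and 548 before *IPS1* (chr3:3050387-3050468, both in 1 stretch), and 564 and 26 before *AT4* (chr5:893998-894045 and chr5:894536-894581). The form GCATATTC occurs 3 times among these 7 matches, at both places of *IPS1* and at the near one of *AT4*.
SPX1: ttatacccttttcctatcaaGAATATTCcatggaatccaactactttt
SPX3 far: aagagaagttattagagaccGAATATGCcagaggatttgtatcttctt
SPX3 near: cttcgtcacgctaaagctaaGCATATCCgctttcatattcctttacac
IPS1: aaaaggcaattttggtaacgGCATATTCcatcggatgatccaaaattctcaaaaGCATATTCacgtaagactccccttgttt
AT4 far: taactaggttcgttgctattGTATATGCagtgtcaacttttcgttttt
AT4 near: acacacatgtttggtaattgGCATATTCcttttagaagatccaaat

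**Figure D5:**
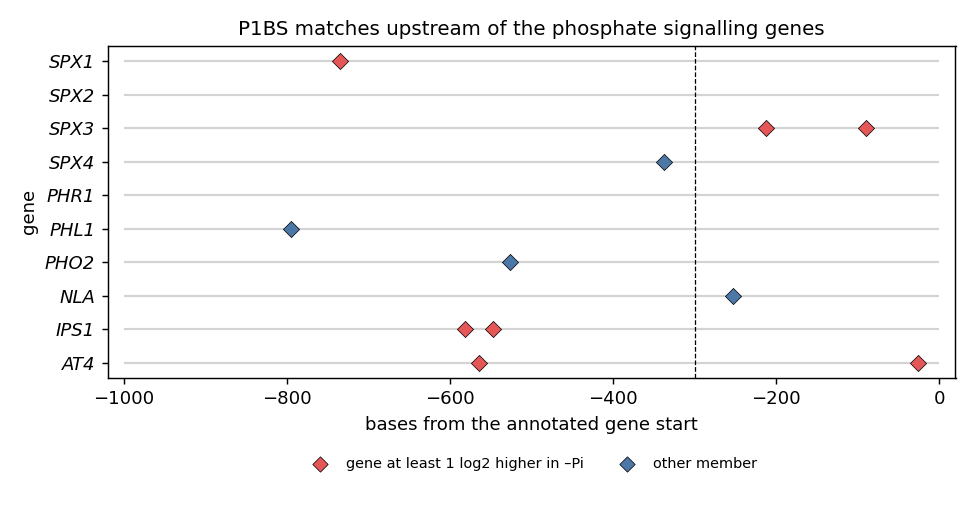
Matches to the P1BS element in the 1000 bases before each annotated gene start (x axis, bases from the start, at 0) for the 10 genes (y axis). Red marks genes at least 1 log2 unit higher on –Pi in both lines and blue the other members, and the dashed line is at 300 bases. *SPX3* has matches at 213 and 90 bases and *AT4* at 564 and 26, while *SPX2* and *PHR1* have none.

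Position alone did not sort the genes by their difference. *PHL1*, *PHO2* and *SPX4* had lower means on –Pi with a match at 795, 526 and 338 bases, *NLA* with one at 253, and *SPX2* had a higher mean with none. Nothing about PHR1 binding follows from these letters.

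For each of the 5 genes higher on –Pi, the 2 genes outside the 10 with the most similar pattern were found by the Euclidean distance over 3 values, the log2 differences of the other groups from Col-0 +Pi. For *IPS1* the nearest was AT2G45135, annotated as a RING/U-box protein, at a distance of 0.355, with –Pi minus +Pi differences of 9.83 in Col-0 against 9.78 in CRR OE from +Pi levels of -4.35 and -4.40 log2 CPM. AT2G45135 (chr2:18608824-18610574) lies 970 bases beyond the end of *SPX3* on the same strand. The next for *IPS1* was AT3G25240, at 0.681, with +Pi levels of -4.35 log2 CPM in Col-0 and -3.87 in CRR OE. For *SPX3* they were *OCT1*, an organic cation and carnitine transporter, at 0.607 with differences of 8.61 and 8.65, and *HOL2* at 1.19, which stands at the table's minimum in Col-0 +Pi. For *SPX2* they were *FLOT2*, a flotillin-like gene, at 0.134 and *PAP1*, a purple acid phosphatase, at 0.148. For *AT4* they were the purple acid phosphatase *PAP23* at 0.301 and AT5G17340 at 0.477. *PAP23* stands at -4.35 log2 CPM in Col-0 +Pi and at the table's minimum in CRR OE +Pi, far below *AT4* on that medium. For *SPX1* they were AT1G21529 at 0.721 and *PAP14* at 0.728, both at the table's minimum in Col-0 +Pi. Among these 10 genes, *PAP1*, *PAP14* and *PAP23* belong to the purple acid phosphatase family, which is known for releasing phosphate from organic compounds. The share of this family among all genes was not taken, so its presence here is not read as a result. *PAP1* and *PAP14* are annotated as probably inactive members, and no more is read from a likeness over 4 group means.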

How the data were processed

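RNA-seq of *Arabidopsis* roots was compared between Col-0 and CRR OE on +Pi and –Pi, with 3 libraries in each of 4 groups. Reads were trimmed by the authors (Cutadapt 1.8), mapped to TAIR10 (STAR 2.5.3a) and summarised by gene (htseq-count 0.9.1). Genes that never reached 1 CPM were removed and libraries scaled by TMM in edgeR 3.24.3. RSEM 1.2.31 and R 3.5.3 appear in the submitters' notes as well. The deposited values are log2 CPM, 1 authors' mean per group for 19802 genes. The authors' comparison tables hold fold changes, p-values, adjusted p-values and an F score of their own limma fits, and were not used. The methods name Trizol and the labels a column kit for the RNA.

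Differences of group means were computed with pandas 2.3.3 and numpy 2.4.6 in Python 3.11.15. The code was run on simulated means with known differences added, which checks the arithmetic only. Past the fold means at least 1 log2 unit. CPM values are group means of log2 CPM put back on the linear scale. Genes of like level lie within 0.5 log2 CPM of a gene's mean over the compared groups. No test was run, because 1 mean per group leaves no spread between the 3 biological replicates, each a pool of seedlings. Named are the 10 members, all genes of the lists by role and of the marker lists, and for each member past the fold on –Pi in both lines the 2 genes of most similar pattern. AT1G02870, *NPGR2* and AT1G04147 are named for their overlap with members. The members and lists were chosen with earlier results of these data known. Sequences and exon lengths are from RefSeq TAIR10.1, in which 19783 of the 19802 genes were matched by locus tag. Figures were drawn with matplotlib 3.10.9. Alternatives were 1 or 5 CPM added, centring on all or on the reference genes, a filter at a mean of 1 log2 CPM, and folds of 0.5 and 2.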

Additional observations from a re-analysis of the deposited data

How the results depend on the processing

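No paired analysis was possible because the table holds 1 mean per group, and leaving out libraries could not be run for the same reason. The number of the 10 genes past the fold was 5 in both –Pi comparisons, or 6 at a fold of 0.5. It was 0 in the other comparisons under each of the 7 alternatives that were run. The filter and the folds of 0.5 and 2 leave a member's difference as it is, so they could not change its direction. The medians taken off in centring were small, with -0.04 the largest in size. With CPM added or with centring, the direction of all 10 held in both –Pi comparisons and between the lines on +Pi. Between the lines on –Pi it held for 9 (not for *PHL1*, at 0.01) and for the difference between responses for 6 (not for *SPX1*, *SPX3*, *NLA* and *IPS1*). Counts over all genes moved more. In Col-0, 1182 genes passed the fold between –Pi and +Pi, 723 with 1 CPM added, 382 with 5 CPM, 748 with the filter, 3201 at a fold of 0.5 and 358 at 2. In CRR OE the counts were 799, 499, 280, 493, 2172 and 258, between the lines 57, 8, 6, 8, 424 and 6 on +Pi and 287, 92, 29, 106, 1342 and 43 on –Pi, and for the difference between responses 426, 136, 39, 176, 1801 and 49. Low levels limit these values: *SPX3* and *IPS1* are under 1 CPM on +Pi.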
